A study of Mus musculus with 6 samples.

Results

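The genes described here encode the working parts of the lysosome: proteins of its limiting membrane, the hydrolases inside it, subunits of the proton pump that acidifies it, and the receptors that deliver its enzymes. They are 36 of the 24165 genes named on the array, and every probe that carries one of their names was taken, which gave 50 of 55681 probes. They were chosen by name, though with earlier results of these data known, and cathepsins were not included. Lysosomes receive hydrolases from the Golgi, where most of them are tagged with mannose 6-phosphate and bound by a receptor, and the vacuolar proton pump (V-ATPase) keeps the lumen acid so that the enzymes work. In autophagy the cell wraps its own cytoplasm in a membrane, and the resulting vesicle fuses with the lysosome, whose hydrolases break the contents down. Many of these genes share a regulator, the transcription factor TFEB, which is known to raise their transcription when the lysosome is stressed or nutrients are short. In the exocrine pancreas, acinar cells make digestive zymogens, and lysosomal enzymes that meet zymogens in one compartment are known from rodent pancreatitis models as a route to early trypsin activation.

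RNA was taken from whole pancreas of C57BL/6N mice on postnatal day 0.5 and hybridised to 1-colour arrays, 2 arrays for each of 3 genotypes. The genotypes were Spink3-/-, which lacks a trypsin inhibitor secreted by acinar cells, Spink3-/-XKI/+, the same null genotype with 1 copy of a further allele that the labels write as XKI, and the control Spink3+/+. The labels do not spell out XKI. According to the design text, acinar cells of Spink3-/- pancreas all die without apoptosis and with autophagy, while in Spink3-/-XKI/+ pancreas part of them look normal, so the comparisons ask whether transcripts of the lysosome differ where autophagy is described. Nothing in the labels says that both samples of a genotype are different animals. The p-values below therefore speak of the scatter among these 6 samples, part or all of which may be technical.

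Spink3 itself matched the labels. Its log2 level (signal over the 75th percentile of the array, so that 0 is that percentile) was 3.25 and 2.95 in Spink3-/- pancreas and 2.64 and 2.34 in Spink3-/-XKI/+ pancreas, against 9.84 and 10.26 in Spink3+/+ pancreas. All 22 acinar markers tested were above background on all 6 arrays, as were 8 of 8 endocrine markers, so the labelled tissue carried its defining transcripts. Between 42.4% and 50.8% of spots on an array were well above background, and log2 levels correlated between any 2 arrays at 0.970 to 0.984. The 6 arrays shared 1 slide with 2 rows of arrays. Row 1 held Spink3-/- replicate 1 and both Spink3+/+ arrays, and row 2 held Spink3-/- replicate 2 and both Spink3-/-XKI/+ arrays, so no row held both Spink3-/-XKI/+ and Spink3+/+.

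TFEB binds an 8-base palindrome, TCACGTGA, which itself holds the shorter CACGTG. Promoters of 31 of the 36 members were found in RefSeq (GRCm38.p6, 250 bases before to 50 after the start site). The palindrome, which reads the same on both strands, stood in 6 of these 31 genes (19.4%), against 304 of 27025 genes with a promoter (1.12%). CACGTG, also a palindrome and counted with or without the flanking bases, was in 12 of 31 (38.7%) against 8.09%. The 30 bases around each copy are shown because these 6 genes are the members that a change in TFEB would be looked for in first. They read 5′ to 3′ on the strand of the gene, with the palindrome in capitals. The number after each position gives the first base of the palindrome relative to the start site of that promoter entry. For Cln3 and Atp6v1a this start site lies inside the gene, whose 5′ end is at chr7:126585817 and chr16:44139702, upstream of the palindrome.
Atp6v0d1, chr8:105566050-105566079, minus strand, -4: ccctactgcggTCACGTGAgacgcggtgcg
Atp6v1a, chr16:44139373-44139402, minus strand, -132: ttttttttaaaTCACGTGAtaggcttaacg
Cln3, chr7:126583340-126583369, minus strand, -122: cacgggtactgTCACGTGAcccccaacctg
Gla, chrX:134601182-134601211, minus strand, -195: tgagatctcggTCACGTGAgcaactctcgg
Gla, chrX:134601215-134601244, minus strand, -228: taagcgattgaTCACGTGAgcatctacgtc
Igf2r, chr17:12769696-12769725, minus strand, -8: gccgactcaggTCACGTGAcgctccgggga
Igf2r, chr17:12769737-12769766, minus strand, -49: gaacgaggacgTCACGTGAgcaggaggcgg
Mcoln1, chr8:3500462-3500491, plus strand, -46: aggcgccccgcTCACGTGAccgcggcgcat
These letters are a match and not a measured binding site. Many of the members were already known to be raised by TFEB, so the shares with the palindrome are no independent evidence of it. Gla and Igf2r held a pair of copies each. The values of the 6 genes are given with their groups below, and none of the 6 was called in any comparison.

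Of the 36 members, 35 were tested, and 32 of them were well above background on all 6 arrays. Arylsulfatase B (Arsb) was not tested, because its probes were above background on 0 and 1 of 6 arrays. The members varied little between arrays of one genotype. Their pooled replicate SD had a median of 0.16 on the log2 scale, against 0.22 over all 14169 genes tested, and ran between 0.05 for Lamp2 and 0.43 for Atp6ap1. The linear levels of the 35 members, in units of the 75th percentile, summed to 961 and 1036 in Spink3-/- pancreas and to 948 and 961 in Spink3-/-XKI/+ pancreas, against 856 and 982 in Spink3+/+ pancreas. Between 46.5% and 51.3% of this sum was the Gla probe and between 8.82% and 11.8% the brightest Idua probe. Without those genes it was 378 and 426 in Spink3-/- pancreas and 413 and 395 in Spink3-/-XKI/+ pancreas, against 338 and 391 in Spink3+/+ pancreas. The ranges of the genotypes overlapped over all 35 members, and without Gla and Idua those of Spink3-/- and Spink3+/+ did too, while both Spink3-/-XKI/+ sums lay above the Spink3+/+ sums, the lower of them by little. In whole pancreas, fewer cells of a type and less RNA per cell cannot be told apart, and this holds for every level below.

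**Figure D1:**
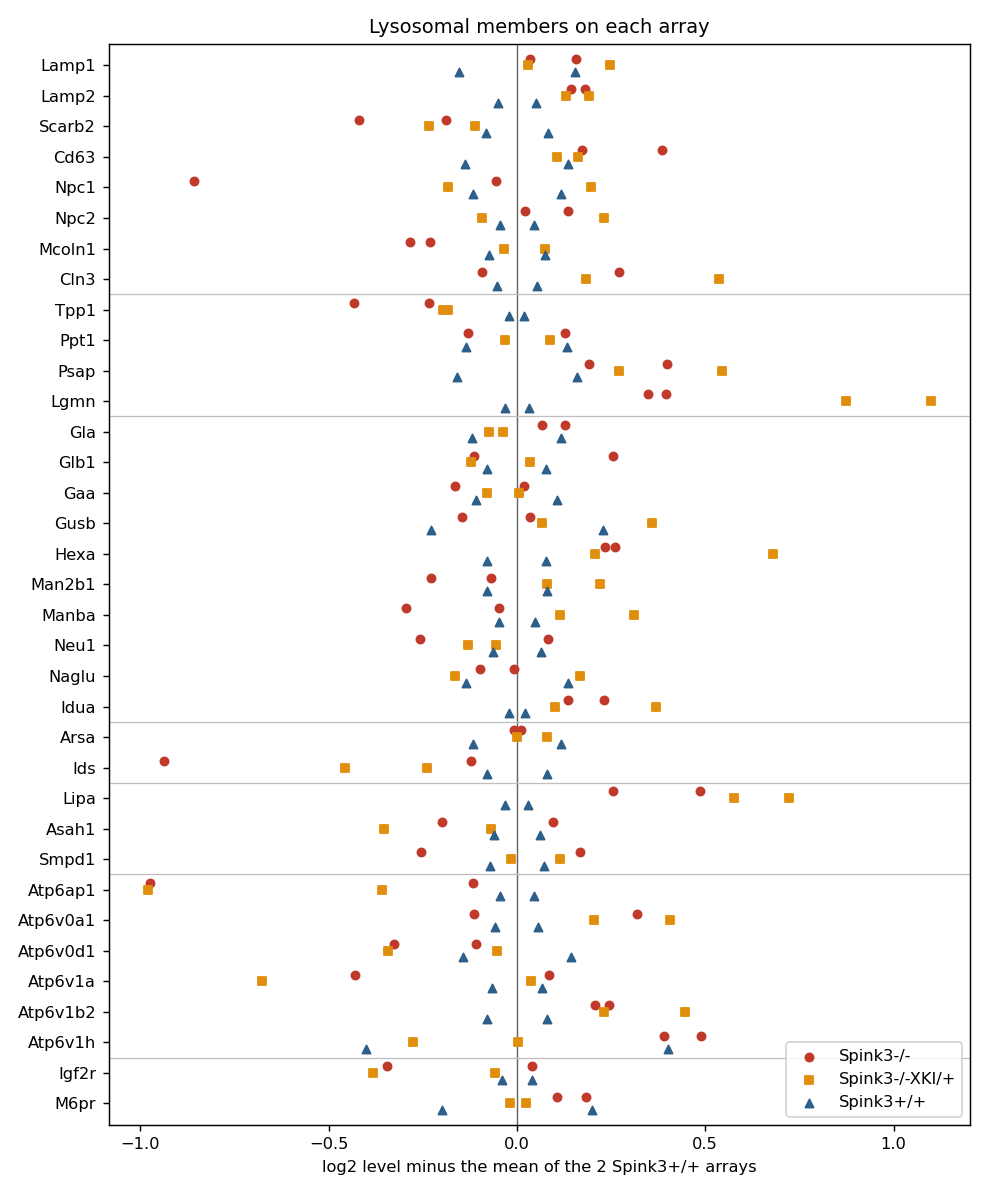
Log2 level of each of the 35 tested members on each of the 6 arrays, minus the mean of the 2 Spink3+/+ arrays, with a circle for each Spink3-/- array, a square for each Spink3-/-XKI/+ array and a triangle for each Spink3+/+ array. Grey lines separate membrane proteins, proteases with Ppt1 and Psap, glycosidases, sulfatases, lipid hydrolases, proton pump and receptors. Most genes have all their points within 0.5 of 0, while both Spink3-/-XKI/+ squares of Lgmn lie 0.87 and 1.10 to the right.

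In Spink3-/- pancreas, where the design text describes autophagy in the acinar cells, no member was called against Spink3+/+. The limma test adjusted over all genes (threshold 0.05) called 0 of 35 members higher, against 0.0212% of all genes, and 0 of 35 lower, against 0.0141%. At an unadjusted p under 0.05 the count was also 0 of 35 in both directions, against 2.73% of all genes higher and 2.33% lower. The median log2 difference of the members was 0.00, with 17 above 0 and 18 below, and the median over all genes was -0.01. The differences ran from -0.55 for Atp6ap1 to 0.44 for Atp6v1h, and 33 of 35 lay within 0.5. Both arrays of one genotype lay beyond both of the other in 8 members higher in Spink3-/- (22.9%, against 16.2% of all genes) and in 5 members lower (14.3%, against 16.6%).

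The precision of these differences is that of the scatter among these 6 samples, part or all of which may be technical. The intervals given next are unadjusted over the members and take no account of the slide row. The 95% confidence interval of a member's difference reached 0.47 to either side at the median, and over the 35 members the intervals spanned -1.38, the lower end for Atp6ap1, to 1.14, the upper end for Atp6v1h. Within slide row 1, Spink3-/- replicate 1 against both Spink3+/+ arrays gave a member median of -0.01. A fit with the row as a block uses this same contrast by construction and adds no second reading. Without Spink3-/- replicate 1 the median was 0.13, and without Spink3+/+ replicate 2 it was 0.08.

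In Spink3-/-XKI/+ pancreas, 0 of 35 members were called higher than in Spink3+/+ (0% of all genes were) and 0 of 35 lower (0.00706% of all genes) by the same limma test. At an unadjusted p under 0.05, 2 members were higher, Lgmn and Lipa (5.71%, against 5.03% of all genes), and 0 were lower (2.54% of all genes). The members' median was 0.03, with 22 above 0 and 13 below, beside 0.04 over all genes. The differences ran from -0.67 for Atp6ap1 to 0.99 for Lgmn. Both Spink3-/-XKI/+ arrays lay above both Spink3+/+ arrays in 11 members (31.4%, against 26% of all genes) and below them in 6 (17.1%, against 16.1%). Without Spink3+/+ replicate 2 the median was 0.14, and with the slide row as a block it was -0.01. That block rests on a row effect estimated from the 2 Spink3-/- arrays, since they alone stood in both rows.

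Between the null genotypes, 0 of 35 members were called higher in Spink3-/- than in Spink3-/-XKI/+ (0.00706% of all genes) and 0 of 35 lower (0% of all genes). At an unadjusted p under 0.05, 1 member was lower in Spink3-/-, again Lgmn (2.86%, against 4.77% of all genes), and 0 were higher (2.43% of all genes). The median was -0.05 for the members and -0.04 for all genes, with 12 members above 0 and 23 below. The differences ran from -0.61 for Lgmn to 0.58 for Atp6v1h. The arrays did not overlap for 4 members higher in Spink3-/- (11.4%, against 13.1% of all genes) and 7 lower (20%, against 21.4%). Within slide row 2, Spink3-/- replicate 2 against both Spink3-/-XKI/+ arrays gave a median of -0.05, and without Spink3-/-XKI/+ replicate 2 it was -0.15. The first 2 comparisons share the Spink3+/+ arrays and the third shares an arm with each of them, so the values of the 3 are not independent.

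**Figure D2:**
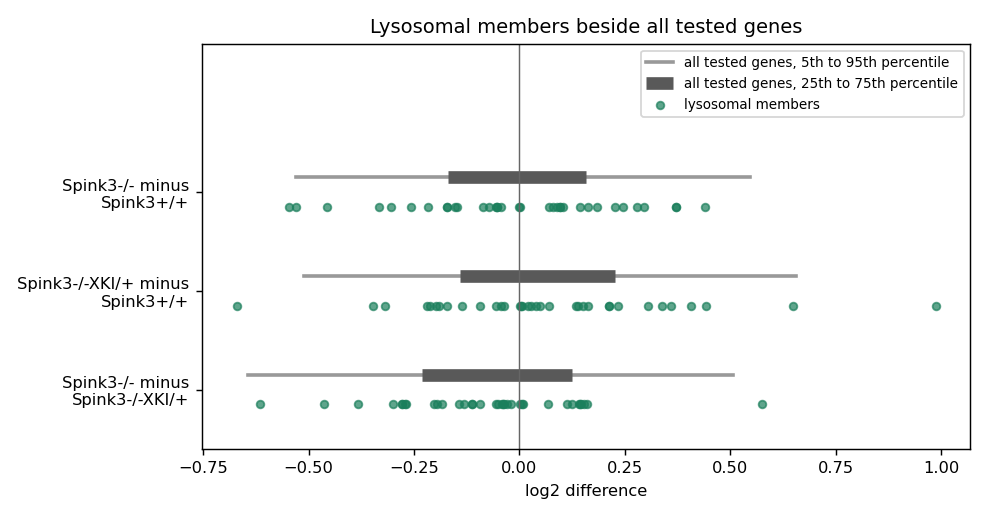
Log2 differences of the 35 tested members (green points) in the 3 comparisons, below the 25th to 75th percentile (thick grey) and 5th to 95th percentile (thin grey) of all 14169 genes. Between the 5th and 95th percentile lie 33, 33 and 34 of the 35 members from top to bottom, and the point farthest to the right is Lgmn at 0.99.

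Set beside the spread of all genes, the 5th and 95th percentiles were -0.53 and 0.55 for Spink3-/- against Spink3+/+, and 33 of 35 members lay between them, with Atp6ap1 and Ids just below. For Spink3-/-XKI/+ against Spink3+/+ the percentiles were -0.51 and 0.66, and the members outside were Atp6ap1 below and Lgmn above. For Spink3-/- against Spink3-/-XKI/+ they were -0.64 and 0.51, and Atp6v1h was the member outside, above.

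Among the proteases and their partners, legumain (Lgmn), an asparaginyl endopeptidase that also trims cathepsins to their mature forms, had the lowest p of all members in each of the 3 comparisons. Its log2 level was 3.80 and 3.76 in Spink3-/- pancreas and 4.51 and 4.28 in Spink3-/-XKI/+ pancreas, against 3.38 and 3.44 in Spink3+/+ pancreas. The 3 genotypes did not overlap, with Spink3-/-XKI/+ the highest, Spink3-/- in the middle and Spink3+/+ the lowest. In Spink3-/-XKI/+ against Spink3+/+ this was 1.98-fold (log2 difference 0.99, SE 0.17, 95% interval 0.58 to 1.40), with an unadjusted p of 0.00104 and a limma adjusted p of 0.275. In Spink3-/- against Spink3+/+ it was 1.29-fold (log2 difference 0.37, SE 0.17, limma adjusted p 0.987). In Spink3-/- against Spink3-/-XKI/+ the log2 difference was -0.61 (SE 0.17, limma adjusted p 0.554), and it was -0.64 within slide row 2. The single Lgmn probe lies at chr12:103632415-103632474 on the minus strand in the mm9 annotation of the array. Leaving out each array in turn kept the Spink3-/-XKI/+ difference from Spink3+/+ between 0.87 and 1.10.

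Prosaposin (Psap), the precursor of the saposins that help hydrolases reach their lipid substrates, was at 2.34 and 2.13 in Spink3-/- pancreas and 2.49 and 2.21 in Spink3-/-XKI/+ pancreas, against 1.78 and 2.10 in Spink3+/+ pancreas. All 4 null arrays were above both Spink3+/+ arrays, but Spink3-/- replicate 2 exceeded Spink3+/+ replicate 2 by little. The log2 difference from Spink3+/+ was 0.29 for Spink3-/- (SE 0.20) and 0.41 for Spink3-/-XKI/+ (SE 0.20), with limma adjusted p of 0.987 and 0.722. Tripeptidyl peptidase (Tpp1), which clips tripeptides from the ends of peptides, stood the other way round. It was at 0.27 and 0.47 in Spink3-/- pancreas and 0.51 and 0.52 in Spink3-/-XKI/+ pancreas, against 0.72 and 0.68 in Spink3+/+ pancreas. The 3 genotypes did not overlap, and the log2 differences from Spink3+/+ were -0.33 and -0.19 (SE 0.16 each, limma adjusted p 0.987 and 0.827). Palmitoyl-protein thioesterase (Ppt1), which removes palmitate from proteins, had differences of 0.00, 0.03 and -0.03 in the 3 comparisons.

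Among the membrane proteins, Lamp1 and Lamp2, the glycoproteins that coat the inner face of the lysosomal membrane, differed little. Lamp1 was at 6.10 and 6.22 in Spink3-/- pancreas and 6.31 and 6.09 in Spink3-/-XKI/+ pancreas, against 5.91 and 6.22 in Spink3+/+ pancreas, and the genotypes overlapped. Lamp2, which autophagosomes need for fusion with the lysosome, was at 2.34 and 2.38 in Spink3-/- pancreas and 2.33 and 2.39 in Spink3-/-XKI/+ pancreas, against 2.15 and 2.25 in Spink3+/+ pancreas. Both null genotypes were above Spink3+/+ without overlap, with log2 differences of 0.16 each (SE 0.16, limma adjusted p 0.987 and 0.844). A second Lamp2 probe, designed to another transcript of the gene, gave -0.16 and -0.10, so the sign differed between the probes.

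Cd63, a tetraspanin of late endosomes and lysosomes, was at 7.37 and 7.59 in Spink3-/- pancreas and 7.31 and 7.36 in Spink3-/-XKI/+ pancreas, against 7.07 and 7.34 in Spink3+/+ pancreas. The Spink3-/- arrays were the highest, 0.28 above Spink3+/+ (SE 0.18, limma adjusted p 0.987) and 0.14 above Spink3-/-XKI/+ (SE 0.18, limma adjusted p 0.931). Scarb2, which carries glucocerebrosidase to the lysosome, had its lowest mean in Spink3-/- pancreas, at -0.46 and -0.23. It was at -0.27 and -0.15 in Spink3-/-XKI/+ pancreas and at -0.12 and 0.04 in Spink3+/+ pancreas, and the null genotypes overlapped. Its differences from Spink3+/+ were -0.30 and -0.17 (SE 0.18 each, limma adjusted p 0.987 and 0.851).

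Mcoln1, the lysosomal calcium channel, was at 2.35 and 2.40 in Spink3-/- pancreas and 2.71 and 2.60 in Spink3-/-XKI/+ pancreas, against 2.71 and 2.56 in Spink3+/+ pancreas. Both Spink3-/- arrays lay below the other 4, by -0.26 against Spink3+/+ (limma adjusted p 0.987) and -0.28 against Spink3-/-XKI/+ (limma adjusted p 0.765, SE 0.16 each). Cln3, a membrane protein whose loss causes a childhood neurodegeneration in humans, was at 1.99 and 2.36 in Spink3-/- pancreas and 2.62 and 2.27 in Spink3-/-XKI/+ pancreas, against 2.14 and 2.03 in Spink3+/+ pancreas. The difference of Spink3-/-XKI/+ from Spink3+/+ was 0.36 (SE 0.21, limma adjusted p 0.754), with no overlap, and it was -0.0021 with the slide row as a block. A second Cln3 probe gave 0.19.

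The cholesterol exporters Npc1 and Npc2 act in sequence, Npc2 taking cholesterol up in the lumen and Npc1 passing it through the membrane. Npc1 was at -1.57 and -0.77 in Spink3-/- pancreas and -0.90 and -0.52 in Spink3-/-XKI/+ pancreas, against -0.83 and -0.60 in Spink3+/+ pancreas. The genotypes overlapped and Spink3-/- replicate 1 alone was low, so the difference of -0.46 had an SE of 0.30 (limma adjusted p 0.987). Npc2 differed by 0.08, 0.07 and 0.01 in the 3 comparisons.

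Among the 10 glycosidases, which take sugars off glycoproteins, glycolipids and glycosaminoglycans, the median difference was -0.05 for Spink3-/- against Spink3+/+, 0.08 for Spink3-/-XKI/+ against Spink3+/+ and -0.05 for Spink3-/- against Spink3-/-XKI/+. Hexa, the alpha chain of beta-hexosaminidase, was at 2.68 and 2.65 in Spink3-/- pancreas and 3.09 and 2.62 in Spink3-/-XKI/+ pancreas, against 2.34 and 2.49 in Spink3+/+ pancreas. All 4 null arrays were above both Spink3+/+ arrays, and Spink3-/-XKI/+ replicate 1 stood apart from its pair. The differences from Spink3+/+ were 0.25 and 0.44 (SE 0.21 each, limma adjusted p 0.987 and 0.706), and the second was 0.21 without Spink3-/-XKI/+ replicate 1.

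The mannosidases Man2b1 and Manba, which remove alpha- and beta-linked mannose, were lower in Spink3-/- than in Spink3-/-XKI/+ pancreas without overlap. Man2b1 was at 3.04 and 3.20 in Spink3-/- pancreas and 3.49 and 3.35 in Spink3-/-XKI/+ pancreas, a difference of -0.30 (SE 0.17, limma adjusted p 0.764), with 3.18 and 3.35 in Spink3+/+ pancreas. Manba was at 1.08 and 1.33 in Spink3-/- pancreas and 1.69 and 1.49 in Spink3-/-XKI/+ pancreas, a difference of -0.38 (SE 0.18, limma adjusted p 0.722), with 1.42 and 1.33 in Spink3+/+ pancreas. Alpha-galactosidase (Gla) was at 8.93 and 8.99 in Spink3-/- pancreas and 8.79 and 8.82 in Spink3-/-XKI/+ pancreas, a difference of 0.15 (SE 0.17, limma adjusted p 0.915). It was at 8.74 and 8.98 in Spink3+/+ pancreas, a range that held both Spink3-/-XKI/+ arrays.

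Beta-galactosidase (Glb1), acid alpha-glucosidase (Gaa), which digests glycogen, sialidase (Neu1) and Naglu, an enzyme of heparan sulfate breakdown, differed little, the widest being 0.11 for Glb1 in Spink3-/- against Spink3-/-XKI/+. Beta-glucuronidase (Gusb) differed by -0.06 in Spink3-/- against Spink3+/+, by 0.21 in Spink3-/-XKI/+ against Spink3+/+ and by -0.27 in Spink3-/- against Spink3-/-XKI/+, and no overlap was seen in the last of these alone.

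Idua, which takes iduronic acid off heparan and dermatan sulfate, was read by a pair of probes with opposite signs. Its brightest probe was at 6.59 and 6.69 in Spink3-/- pancreas and 6.56 and 6.83 in Spink3-/-XKI/+ pancreas, against 6.48 and 6.44 in Spink3+/+ pancreas, which gave differences of 0.18 and 0.23 without overlap. The second probe was at 0.85 and 1.01 in Spink3-/- pancreas and 1.26 and 1.03 in Spink3-/-XKI/+ pancreas, against 1.16 and 1.38 in Spink3+/+ pancreas, which gave -0.34 and -0.13. The first 30 bases of the 60-base probes are shown because they differ in kind, with the mm9 positions of the whole probes on the plus strand and a 20-base run of alternating C and A in capitals.
Idua, brightest probe, chr5:109112893-109112952: CACACACACACACACACACAgagtctaaat
Idua, second probe, chr5:109113517-109113576: cccaaatgactctagcttgtaataaactga
A dinucleotide run of 20 or more bases was found in 1 of the 50 member probes, this one, and in 82 of all 55681 probes (0.147%), and the next longest run among the member probes had 6 bases. Whether the brightest Idua probe binds other transcripts with such repeats was not tested.

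The sulfatases remove sulfate from glycolipids and glycosaminoglycans. Arylsulfatase A (Arsa) differed by 0.00, 0.04 and -0.04 in the 3 comparisons. Iduronate sulfatase (Ids) was dim, at -2.13 and -2.95 in Spink3-/- pancreas and -2.25 and -2.47 in Spink3-/-XKI/+ pancreas, against -1.93 and -2.09 in Spink3+/+ pancreas. All 4 null arrays were below both Spink3+/+ arrays, but Ids was above background on 1 of 2 Spink3-/- arrays. The differences were -0.53 and -0.35 (SE 0.29 each, limma adjusted p 0.987 and 0.819), and the second was 0.47 with the slide row as a block, so its direction depended on that term. The first rested on Spink3-/- replicate 2, and was -0.12 without it and -0.12 with normexp background correction.

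Among the lipid hydrolases, lysosomal acid lipase (Lipa), which frees cholesterol and fatty acids from cholesteryl esters and triglycerides, followed the same order as Lgmn. It was at 0.62 and 0.85 in Spink3-/- pancreas and 1.09 and 0.94 in Spink3-/-XKI/+ pancreas, against 0.40 and 0.33 in Spink3+/+ pancreas, with no overlap between any of the 3 genotypes. Against Spink3+/+ this was 1.57-fold for Spink3-/-XKI/+ (log2 difference 0.65, SE 0.17, 95% interval 0.23 to 1.07, unadjusted p 0.00928, limma adjusted p 0.479). With the slide row as a block that log2 difference was 0.42. For Spink3-/- it was 1.29-fold (log2 difference 0.37, SE 0.17, limma adjusted p 0.987), and 0.26 within slide row 1. Acid ceramidase (Asah1) was at -0.24 and 0.06 in Spink3-/- pancreas and -0.11 and -0.39 in Spink3-/-XKI/+ pancreas, against -0.10 and 0.02 in Spink3+/+ pancreas. Its difference for Spink3-/-XKI/+ was -0.21 (SE 0.20, limma adjusted p 0.837), where the nearest arrays of the genotypes stood at -0.11 and -0.10, and a second probe gave 0.04. Acid sphingomyelinase (Smpd1) differed by -0.04, 0.05 and -0.09.

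The proton pump is built from a membrane sector, V0, that carries the protons and a cytosolic sector, V1, that burns ATP, and its 6 members showed no common direction. The median difference was -0.03 for Spink3-/- against Spink3+/+, with 3 above 0 and 3 below, and -0.17 for Spink3-/-XKI/+ against Spink3+/+, with 2 above and 4 below. The accessory subunit Atp6ap1 was at -1.10 and -1.96 in Spink3-/- pancreas and -1.35 and -1.97 in Spink3-/-XKI/+ pancreas, against -0.94 and -1.03 in Spink3+/+ pancreas. All 4 null arrays were lower, but replicate 2 of each null genotype was much lower than replicate 1, and 1 of 2 Spink3-/- arrays was above background. The differences were -0.55 and -0.67 (SE 0.34 each, limma adjusted p 0.987 and 0.722). Without Spink3-/- replicate 2 the first was -0.12, and with the slide row as a block the second was 0.19.

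Of the V1 subunits, Atp6v1h, which governs the activity of the assembled pump, was at -0.41 and -0.31 in Spink3-/- pancreas and -1.08 and -0.80 in Spink3-/-XKI/+ pancreas, a difference of 0.58 (SE 0.29, limma adjusted p 0.735). The Spink3+/+ arrays lay far apart, at -1.20 and -0.40, and spanned all but 1 of the other 4 values. The catalytic subunit Atp6v1a differed by -0.17 and -0.32 from Spink3+/+, and its second probe by 0.26 and 0.05. Atp6v1b2, its partner in the catalytic ring, differed by 0.23 and 0.34 without overlap, but was above background on 1 of 2 Spink3+/+ arrays. Of the V0 subunits, Atp6v0a1 differed by 0.10 and 0.31 and Atp6v0d1 by -0.22 and -0.20.

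The receptors for mannose 6-phosphate, Igf2r and M6pr, carry the tagged hydrolases from the Golgi towards the lysosome. Igf2r was at 2.28 and 1.90 in Spink3-/- pancreas and 2.18 and 1.86 in Spink3-/-XKI/+ pancreas, against 2.20 and 2.28 in Spink3+/+ pancreas. The difference of Spink3-/-XKI/+ was -0.22 (SE 0.21, limma adjusted p 0.844), and it was 0.17 with the slide row as a block. M6pr was at 1.36 and 1.44 in Spink3-/- pancreas and 1.28 and 1.24 in Spink3-/-XKI/+ pancreas, a difference of 0.14 (SE 0.19, limma adjusted p 0.940), while the Spink3+/+ arrays, at 1.06 and 1.46, lay outside all of these.

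**Figure D3:**
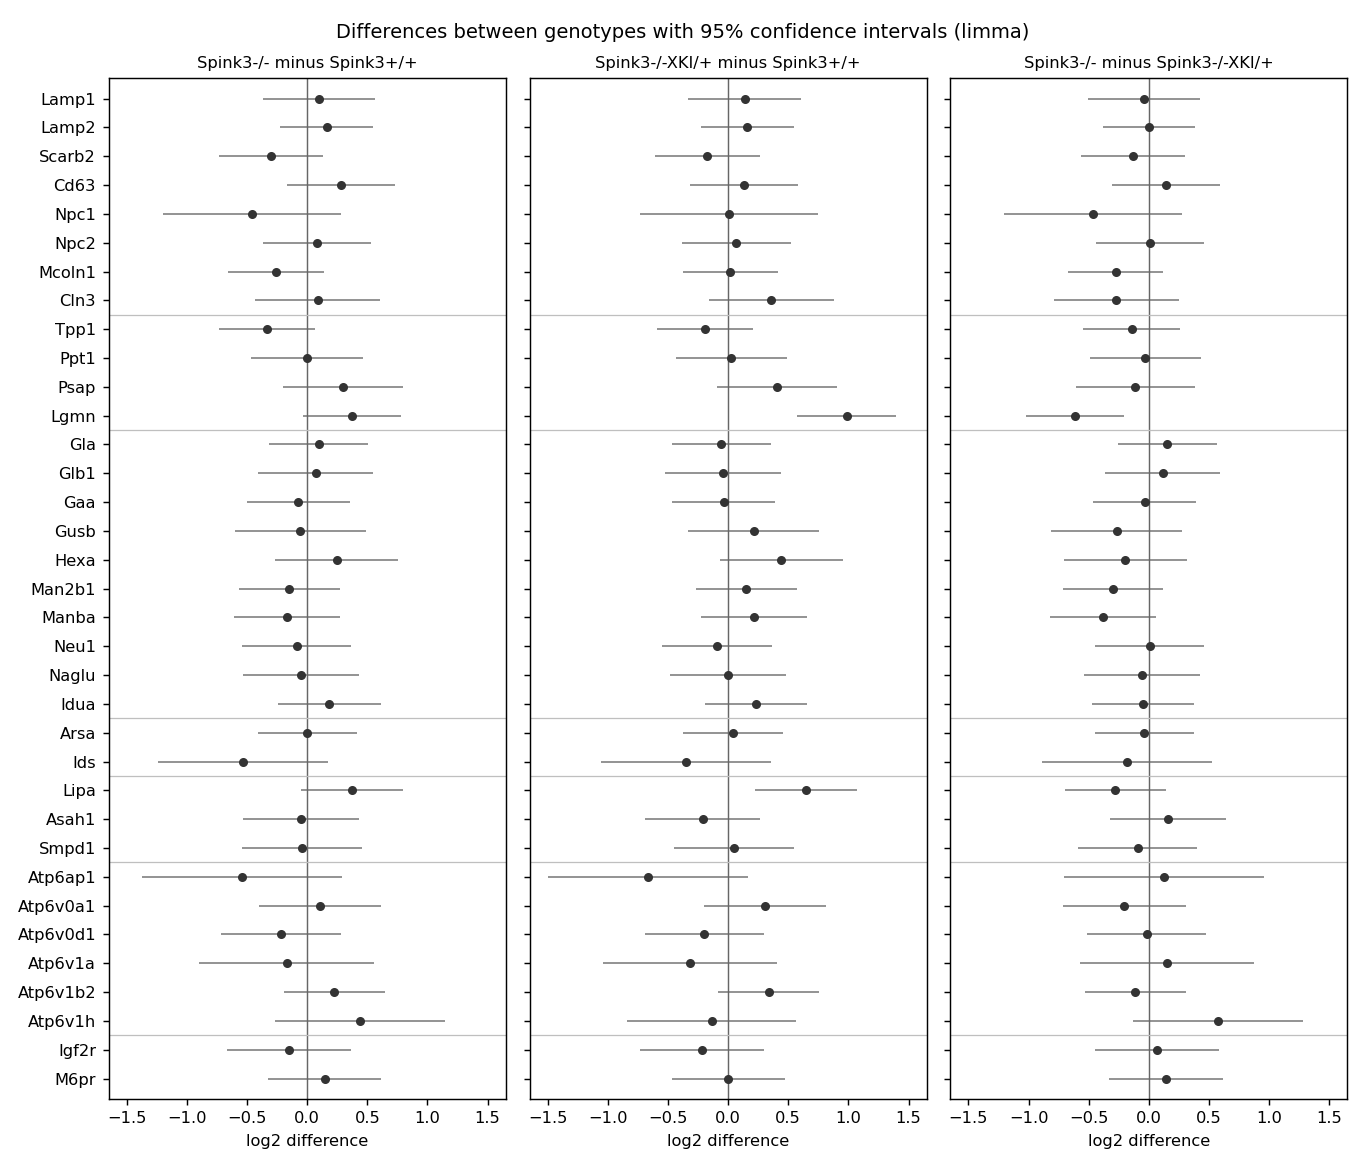
Log2 difference of each tested member in each comparison (points) with its 95% confidence interval from the limma fit over all 6 arrays (bars), in the order of groups used for the plot of levels by array. The unadjusted intervals leave out 0 for 0 members on the left, for Lgmn and Lipa in the middle and for Lgmn on the right.

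Of the 6 members with the TFEB palindrome in the promoter, the differences in Spink3-/- against Spink3+/+ were -0.22 for Atp6v0d1, -0.17 for Atp6v1a, 0.09 for Cln3, 0.10 for Gla, -0.15 for Igf2r and -0.26 for Mcoln1. For Spink3-/-XKI/+ against Spink3+/+ they were -0.20, -0.32, 0.36, -0.06, -0.22 and 0.02 in the same order. The signs were mixed in both comparisons.

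Several members rest on more than 1 probe, which gives a second reading of the same gene. Of 12 members with several probes on the array, 8 had more than 1 that passed the filter on dim probes. The probes of a gene had opposite signs in 6 of these 8 for Spink3-/- against Spink3+/+ and in 5 of 8 for Spink3-/-XKI/+ against Spink3+/+. Cln3 and M6pr were the members whose probes had the same sign in Spink3-/- against Spink3+/+. The widest gap was in Atp6v0a1, whose second probe gave 0.96 (SE 0.41) for Spink3-/-XKI/+ but was above background on 2 of 6 arrays. Lgmn, Lipa, Psap and Hexa had 1 probe each, so their differences have no second reading.

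**Figure D4:**
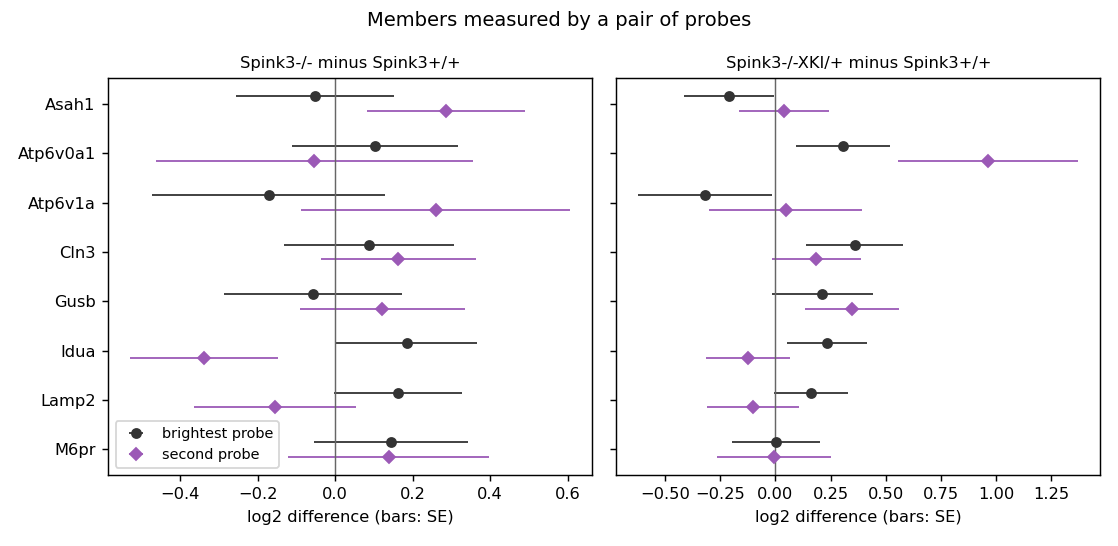
Log2 difference (with SE bars) of the brightest probe (circle) and the second probe (diamond) of the 8 members with more than 1 passing probe, on the left for Spink3-/- minus Spink3+/+ and on the right for Spink3-/-XKI/+ minus Spink3+/+. Circle and diamond fall on opposite sides of 0 for 6 of 8 genes on the left and 5 of 8 on the right.

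Lgmn, Lipa, Psap and Hexa are abundant in macrophages as well as in other cells, but were picked here for their rises. Most members did not stand in their order of genotype means, among them Tpp1, Scarb2, Asah1, Npc2 and Cd63. The summed macrophage markers stood in the order seen for Lgmn and Lipa. All 16 were tested and 15 were above background on all 6 arrays. Their linear levels summed to 189 and 195 in Spink3-/- pancreas and to 219 and 211 in Spink3-/-XKI/+ pancreas, against 158 and 167 in Spink3+/+ pancreas, with no overlap. Itgam, the brightest marker, weighed most in this sum. It was at 6.66 and 6.79 in Spink3-/- pancreas and 6.64 and 6.87 in Spink3-/-XKI/+ pancreas, against 6.54 and 6.50 in Spink3+/+ pancreas, so its null genotypes overlapped. The median difference of the 16 markers was 0.23 for Spink3-/- against Spink3+/+ (14 of 16 above 0), 0.65 for Spink3-/-XKI/+ against Spink3+/+ (14 of 16 above 0) and -0.33 for Spink3-/- against Spink3-/-XKI/+ (14 of 16 below 0). None of the 16 was called in any comparison. The genotype means ran from highest in Spink3-/-XKI/+ through Spink3-/- to lowest in Spink3+/+ in 12 of the 16 markers, the others being Cd14, C1qa, Mrc1 and Cd163, and in 10 of the 35 members, against 21.8% of all genes. Cd68, a macrophage lysosomal membrane protein, was at 1.97 and 1.90 in Spink3-/- pancreas and 2.73 and 2.12 in Spink3-/-XKI/+ pancreas, against 1.17 and 1.46 in Spink3+/+ pancreas. Csf1r, the receptor that macrophages need to survive, was at 4.99 and 5.19 in Spink3-/- pancreas and 5.41 and 5.21 in Spink3-/-XKI/+ pancreas, against 4.82 and 4.98 in Spink3+/+ pancreas. The scavenger receptor Cd163 went the other way and was not well above background on any null array, against both Spink3+/+ arrays above it. Cd163 therefore passed the filter on dim probes through Spink3+/+ alone. The part of macrophages in the levels of these 4 members was not tested.

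**Figure D5:**
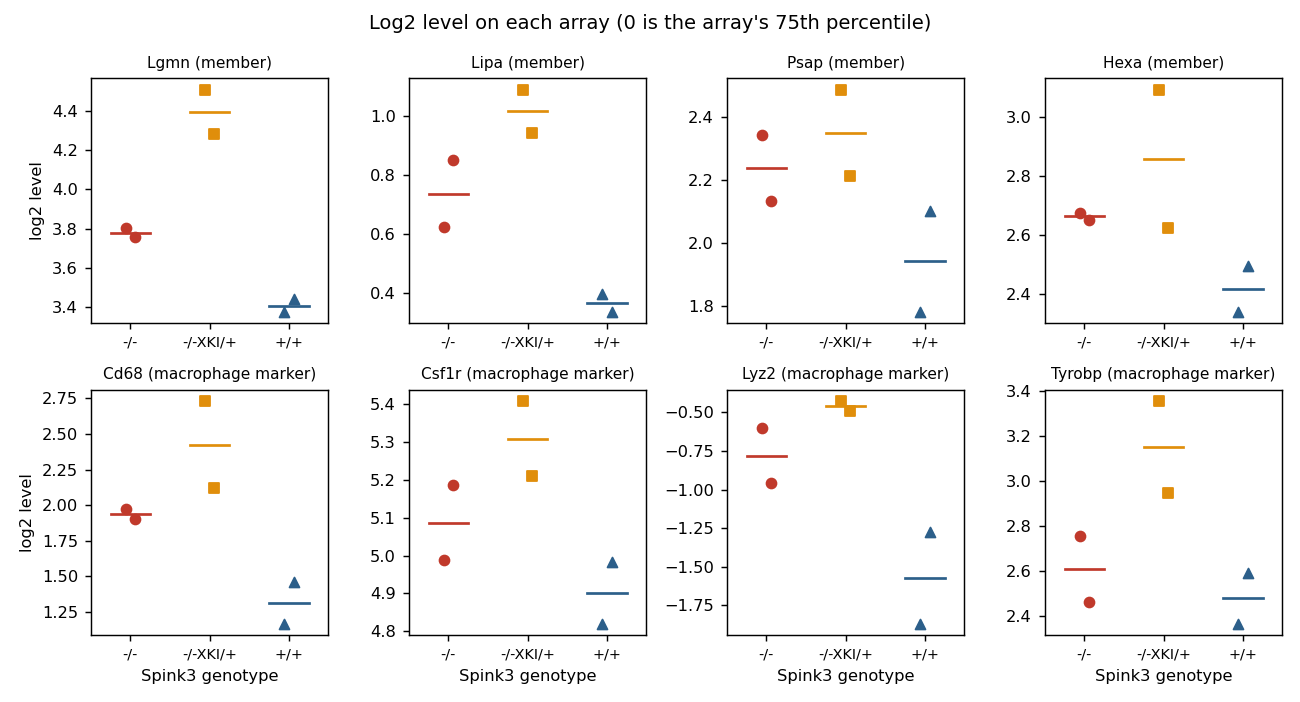
Log2 level on each array (points) and the mean of each genotype (bars) for the members Lgmn, Lipa, Psap and Hexa (top) and the macrophage markers Cd68, Csf1r, Lyz2 and Tyrobp (bottom). Each panel has its own vertical axis. The 8 genes were chosen with their values known. Their means are highest in Spink3-/-XKI/+ and lowest in Spink3+/+, an order found in 12 of all 16 macrophage markers and 10 of all 35 members.

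Markers of other cell types were also read, and none was called in any comparison. The 14 liver markers had a median difference of 1.53 for Spink3-/- against Spink3+/+, with summed levels of 182 and 201 in Spink3-/- pancreas and 139 and 152 in Spink3-/-XKI/+ pancreas, against 126 and 142 in Spink3+/+ pancreas. All 14 were tested, and 11 of them were above background on all 6 arrays. In Spink3-/- against Spink3+/+, 13 were higher without overlap (0 lower), against 16.2% of all genes higher. At an unadjusted limma p under 0.05, 7 were higher there, against 2.73% of all genes. Ambp and Trf, the brightest liver markers, weighed most in the summed levels and differed by 0.07 and 0.43. Albumin was at 2.13 and 1.44 in Spink3-/- pancreas and -0.55 and 1.06 in Spink3-/-XKI/+ pancreas, against -0.23 and 0.35 in Spink3+/+ pancreas. The acinar markers summed to 19650 and 25540 in Spink3-/- pancreas and 23470 and 23750 in Spink3-/-XKI/+ pancreas, against 21830 and 25180 in Spink3+/+ pancreas, and these ranges overlapped. This sum is weighted to the brightest genes. Marker by marker, 17 of 22 were below 0 in Spink3-/- against Spink3+/+, with a median of -0.15, and 8 were lower without overlap (0 higher), against 16.6% of all genes lower. At an unadjusted p under 0.05, 3 were lower, namely the pancreatic lipase Pnlip at -1.41, Ctrl at -0.84 and Pla2g1b at -0.60. The acinar median was 0.03 in Spink3-/-XKI/+ against Spink3+/+ and -0.14 in Spink3-/- against Spink3-/-XKI/+. The 9 neutrophil markers had medians of -0.75 and -1.08 against Spink3+/+ and the 4 erythroid markers tested -0.79 and -1.25, for Spink3-/- and Spink3-/-XKI/+ in that order. Duct, endocrine, fibroblast and endothelial markers had medians between -0.18 and 0.16 in both. Single markers lay farther out. Against Spink3+/+, duct markers ran from -1.17 to 0.94 in Spink3-/- and from -1.19 to 0.99 in Spink3-/-XKI/+. In Spink3-/-XKI/+, fibroblast markers ran from -0.16 to 1.66 and endothelial markers from -0.86 to 0.51. What part any of these cells had in the members' levels was not tested.

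The remaining genes of the pathway were read from 4 further lists, and none of their genes was called in any comparison. Of 26 other hydrolases and cofactors, 23 were tested, with medians of -0.04, 0.07 and -0.10 for Spink3-/- against Spink3+/+, Spink3-/-XKI/+ against Spink3+/+ and Spink3-/- against Spink3-/-XKI/+. Hyal1, which cuts hyaluronan, was not well above background on either Spink3-/- array and was above it on both Spink3+/+ arrays. In Spink3-/-XKI/+ pancreas it was above on 1 of 2 arrays, so it passed the filter on dim probes through Spink3+/+ alone. The means were -2.92 in Spink3-/- and -1.72 in Spink3+/+ (log2 difference -1.21, SE 0.41, limma adjusted p 0.968). With the dim arrays set at the lowest signal found among probes above background, Spink3+/+ was 1.64-fold higher. That value takes no account of the scatter between arrays and is not a lower limit. Pla2g15, a lysosomal phospholipase, was -0.51 in Spink3-/- against Spink3+/+ and -0.91 against Spink3-/-XKI/+ (limma adjusted p 0.987 and 0.554). Hgsnat, an acetyltransferase of heparan sulfate breakdown, differed by 0.45 in Spink3-/-XKI/+ against Spink3+/+ and by -0.65 in Spink3-/- against Spink3-/-XKI/+ (limma adjusted p 0.705 and 0.578).

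Of 22 other lysosomal membrane proteins, 19 were tested, with medians of -0.02, 0.02 and -0.02 in the 3 comparisons. The largest differences were those of Cd68, at 0.62 and 1.11 against Spink3+/+ for Spink3-/- and Spink3-/-XKI/+ (limma adjusted p 0.984 and 0.415), and of Laptm5, a membrane protein of blood-derived cells, at 0.64 for Spink3-/-XKI/+ against Spink3+/+ (limma adjusted p 0.606). Abca2, a lysosomal lipid transporter, differed by -0.46 and -0.62 in Spink3-/- against Spink3+/+ and against Spink3-/-XKI/+, and was above background on 1 of 2 arrays of both Spink3-/- and Spink3+/+. Tpcn1, a lysosomal cation channel, differed by -0.51 in Spink3-/- against Spink3-/-XKI/+ (limma adjusted p 0.580).

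Of 19 other V-ATPase subunits, 14 were tested, with medians of -0.01, 0.00 and -0.16 in the 3 comparisons. Atp6v1c1 and Atp6v1d were -0.47 and -0.43 in Spink3-/- against Spink3+/+ (limma adjusted p 0.987 each), and Atp6v1d rested on Spink3-/- replicate 1, at 1.69 against 2.99 in replicate 2. Atp6v0a4, the a subunit known from the kidney, was above background on both Spink3-/-XKI/+ arrays and on no other array. It therefore passed the filter on dim probes only through the genotype where it was higher. Replicate 1 of Spink3-/-XKI/+ and replicate 1 of Spink3-/- both stood at -2.72. The means were -2.35 in Spink3-/-XKI/+ and -3.26 in Spink3+/+ (limma adjusted p 0.555). With its dim arrays set as for Hyal1, Spink3-/-XKI/+ was 1.15-fold higher than Spink3+/+. Atp6v0e2 differed by 0.44 in Spink3-/-XKI/+ against Spink3+/+ (limma adjusted p 0.705).

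Of 20 genes of the TFEB family and of mTORC1 control at the lysosome, 18 were tested, with medians of 0.02, 0.00 and 0.01. Tfeb itself was at -1.10 and -1.02 in Spink3-/- pancreas and -1.10 and -0.87 in Spink3-/-XKI/+ pancreas, against -1.35 and -1.57 in Spink3+/+ pancreas. All 4 null arrays were above both Spink3+/+ arrays, by 0.40 and 0.48 on average (limma adjusted p 0.987 and 0.632). The kinase Mtor, which holds TFEB in the cytoplasm when nutrients are plentiful, was at -2.34 and -1.96 in Spink3-/- pancreas and -1.18 and -1.74 in Spink3-/-XKI/+ pancreas, against -1.52 and -1.42 in Spink3+/+ pancreas, and was above background on 1 of 2 Spink3-/- arrays. Both Spink3-/- arrays were the lowest, by -0.68 against each of the other genotypes (limma adjusted p 0.984 and 0.629). Of the Rag GTPases, which bring mTORC1 to the lysosome, Rragd differed by 0.66 in Spink3-/- against Spink3+/+ (limma adjusted p 0.987). This rested mostly on Spink3-/- replicate 2, at -0.49 against -1.34 in replicate 1, with -1.72 and -1.43 in Spink3+/+ pancreas. Rragc differed by -0.52 in Spink3-/-XKI/+ against Spink3+/+ (limma adjusted p 0.739). Rraga was at 1.29 and 0.20 in Spink3-/- pancreas and 0.19 and -0.05 in Spink3-/-XKI/+ pancreas, against 0.54 and 0.93 in Spink3+/+ pancreas. Its high value stood on Spink3-/- replicate 1 alone. In Spink3-/-XKI/+ against Spink3+/+ it differed by -0.665 without overlap (limma adjusted p 0.743).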

How the data were processed

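Total RNA of 6 whole-pancreas samples (2 arrays for each of 3 genotypes, grouped by title) was labelled with Cy3. Per the file headers, the authors' scanner intensities came from Agilent Feature Extraction 10.7.3.1 with background subtracted by spatial detrending, a multiplicative detrend and surrogate values for dim spots, and with no step between arrays. The deposited series table held the same intensities (largest relative difference 0).

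From these, log2 of the processed intensity deposited by the authors minus the 75th percentile of each array was computed in R 4.3.3. Spots of a probe were averaged without outlier spots. A probe was kept where 1 genotype or more had both its arrays well above background (24821 of 55681), each gene was its brightest kept probe, and 14169 genes were fitted with limma 3.58.1 (lmFit, contrasts.fit, eBayes) over all 6 arrays (3 residual degrees of freedom) with Benjamini-Hochberg adjustment over all genes and a threshold of 0.05. The number of arrays limits the precision. Probe names were updated through RefSeq accessions (26762 probes), symbols (3819) or older symbols (639), and 2044 kept the name in the files. The fit was tested on simulated data.

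The members and all lists (pathway genes, and markers of macrophages, acinar, liver, duct, endocrine, fibroblast, endothelial, erythroid and neutrophil cells) were chosen with earlier results of these data known. Array by array values are given, per comparison, for up to 5 members with the largest difference each way whose genotypes did not overlap and whose higher genotype was above background on both arrays. From each pathway list, up to 2 genes are named per comparison, those with the largest differences. Lamp1, Lamp2, Npc1, Idua, Tfeb and the marker genes with values were named outside this rule, after their values were seen. Figures were drawn with matplotlib 3.10.9. Alternatives covered background correction, scaling, the filter on dim probes, the choice of probe, the arrays in the fit, blocks and each array left out.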

Additional observations from a re-analysis of the deposited data

How the results depend on the processing

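The count of called members was 0 in all 3 comparisons under 10 other settings and with each of the 6 arrays left out. The members' median moved by more than the spread between replicates in 4 cases, all of them with an array left out. For Spink3-/- against Spink3+/+ the median was 0.1265 without Spink3-/- replicate 1 and 0.0807 without Spink3+/+ replicate 2, and it ran from -0.0585 to 0.1265 over the 6 arrays left out in turn. For Spink3-/-XKI/+ against Spink3+/+ it was 0.1361 without Spink3+/+ replicate 2, in a range of -0.0215 to 0.1361. For Spink3-/- against Spink3-/-XKI/+ it was -0.1506 without Spink3-/-XKI/+ replicate 2, in a range of -0.1506 to 0.0025. With the slide row as a block, the differences of Spink3-/-XKI/+ from Spink3+/+ changed sign for Cln3 (-0.0021), Atp6ap1 (0.19), Ids (0.4677) and Igf2r (0.1658), and the cause was not tested beyond the fact that this row effect rests on the Spink3-/- arrays. The other 456 of 460 values of named members kept their sign and their side of the threshold. The replicate numbers do not pair the samples (correlations of same-numbered deviations of -0.055, 0.031 and 0.199), and with the replicate block 0 members were called. Each number holds 1 array of each genotype, so that block cannot change a difference, and its medians of -0.0011, 0.0284 and -0.05 say nothing about stability. The deposited series table repeats the main values by construction.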
